A study of Mus musculus with 16 samples.

Results

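The unfolded protein response and endoplasmic reticulum (ER) stress genes are described here as a list of 33 mouse genes: ER chaperones, genes of ER-associated degradation, and the sensors and effectors of the IRE1, PERK and ATF6 arms. Members were taken by gene symbol from the 21965 genes of a table of read counts from mouse ileum. All 33 were found, and all 33 were among the 13811 genes left by the filter on low counts. The samples were terminal ileum segments of 1.5 cm from 16 male C57BL/6 mice, with 1 RNA-seq library per mouse. WT mice and their heterozygous fat-1 littermates were 8 to 10 weeks old at the start. The fat-1 transgene is a C. elegans desaturase gene, expressed in all tissues, whose enzyme turns n6 into n3 polyunsaturated fatty acids, and it is not the mouse Fat1 cadherin gene. All mice received a Lieber-DeCarli liquid diet for 6 weeks. EtOH-fed mice were brought stepwise to 6% (v/v) EtOH, held for 3 weeks, and pair-fed (PF) mice received maltose dextrin in place of its calories. The groups were WT PF (n = 4), fat-1 PF (n = 4), WT EtOH (n = 3) and fat-1 EtOH (n = 5).

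Proteins that enter the secretory pathway fold in the ER with the help of chaperones, and those that fail to fold are sent back to the cytosol and degraded. When unfolded proteins accumulate, the sensors IRE1, PERK and ATF6 signal from the ER membrane. ATF6 and the spliced transcription factor made through IRE1 raise transcription of chaperone and degradation genes. PERK slows translation and favours synthesis of ATF4, which drives genes of amino acid supply and of stress-related cell death. The intestinal epithelium has a second IRE1 gene, Ern2, which is active in mucus-secreting goblet cells. Goblet, Paneth and plasma cells secrete heavily and rely on this response.

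Sequences upstream of members are shown first because ATF6 and ATF4 act through short elements there. RefSeq promoter windows of build GRCm38.p6, from 250 bases before to 50 after the transcription start, were matched for 28 of the 33 members. Hyou1, Manf, Derl1, Atf6 and Ern2 had no window. Both strands were searched for the ER stress response element ERSE (CCAAT, any 9 bases, CCACG), for ERSE-II (ATTGG, any base, CCACG), for the UPR element TGACGTGG and for the amino acid response element AARE (TGATGNAAN). ERSE and ERSE-II both contain CCACG, which alone was present in 23 of the 28 members and in 35.5% of all 27025 genes with a window. ERSE was found in 8 of the 28 members and in 37 of all genes (0.137%). ERSE-II was found in 2 members, Herpud1 and Dnajb11, and in 12 of all genes (0.0444%). AARE was found in 4 members, Asns, Chac1, Herpud1 and Trib3, and in 4.50% of all genes. The UPR element was found in 0 of the 28 members and in 0.714% of all genes. These are matches of letters and no measurement of binding. In the stretches of 8 members below, read 5′ to 3′ on the strand of the gene, capitals mark the ERSE. Where the element lies on the opposite strand, as in Creld2, Calr and the second match of Hsp90b1, its reverse complement is in capitals.
Hspa5 (chr2:34771940-34772089, plus strand): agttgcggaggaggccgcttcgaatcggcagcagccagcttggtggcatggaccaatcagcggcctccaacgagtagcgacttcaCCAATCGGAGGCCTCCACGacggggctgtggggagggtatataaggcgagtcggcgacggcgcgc
Hsp90b1 (chr10:86705525-86705664, minus strand): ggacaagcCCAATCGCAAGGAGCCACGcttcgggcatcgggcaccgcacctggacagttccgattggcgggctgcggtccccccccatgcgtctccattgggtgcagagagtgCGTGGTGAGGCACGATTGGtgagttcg
Dnajc3 (chr14:118937807-118937865, plus strand): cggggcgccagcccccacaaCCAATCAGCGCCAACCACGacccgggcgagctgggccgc
Creld2 (chr15:88819500-88819558, plus strand): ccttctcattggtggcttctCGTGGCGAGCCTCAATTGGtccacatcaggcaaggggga
Calr (chr8:84847055-84847113, minus strand): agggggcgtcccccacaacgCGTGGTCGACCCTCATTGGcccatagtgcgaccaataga
Canx (chr11:50325780-50325838, minus strand): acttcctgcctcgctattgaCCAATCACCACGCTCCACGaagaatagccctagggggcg
Pdia6 (chr12:17266471-17266529, plus strand): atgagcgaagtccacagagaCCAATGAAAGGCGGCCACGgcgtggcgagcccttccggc
Syvn1 (chr19:6046512-6046570, plus strand): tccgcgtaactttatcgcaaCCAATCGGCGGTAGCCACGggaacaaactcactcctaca

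Stretches of Herpud1, Chac1 and Asns are shown for the elements of the ATF4 arm. Capitals mark the AARE, which lies on the opposite strand in Herpud1 and Chac1, and in Herpud1 also the ERSE-II, which follows it toward the start site.
Herpud1 (chr8:94386299-94386398, plus strand): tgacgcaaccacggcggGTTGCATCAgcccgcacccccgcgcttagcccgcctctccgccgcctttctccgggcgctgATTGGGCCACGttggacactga
Chac1 (chr2:119351028-119351076, plus strand): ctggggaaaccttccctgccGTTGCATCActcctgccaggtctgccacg
Asns (chr6:7693210-7693252, minus strand): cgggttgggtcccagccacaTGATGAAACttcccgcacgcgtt

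**Figure D1:**
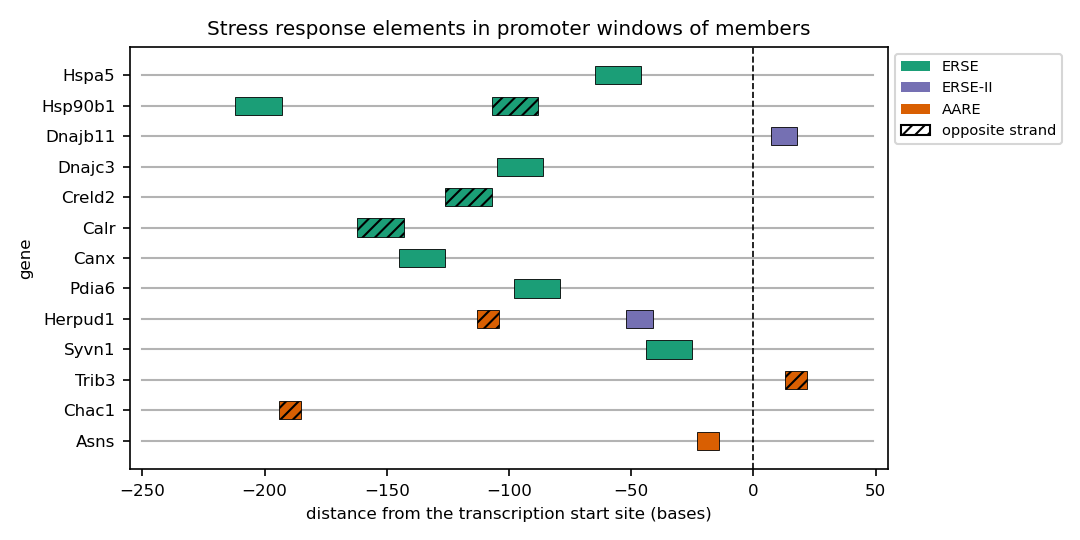
Positions of ERSE, ERSE-II and AARE matches in the promoter windows of the 13 members that hold one, in bases from the transcription start site (dashed line at 0). Hatched boxes are matches on the strand opposite to the gene. Each of the 8 members with ERSE carries it before the start site, and Hsp90b1 carries 2.

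Totals ran from 8422645 to 11438539 counts per library. Values per mouse are CPM, counts relative to the library total after TMM scaling. Relative to the totals before TMM scaling, 3 counts were 0.262 to 0.356 CPM. The lowest count of any member in any mouse was 8. The libraries differed in genes of gut region, which bears on every EtOH comparison below. The summed CPM of 8 large intestine genes was 104 to 183 in PF mice and 137 to 245.5 in 5 EtOH-fed mice, but 4893 in WT EtOH replicate 2 and 12050 and 13090 in fat-1 EtOH replicates 3 and 4. Of these genes Aqp8 and Car1 had no count in some of the mice. Those last 2 libraries had 1153 and 1246 summed CPM of 6 enterocyte genes, against 15730 to 27560 in the other 14. The summed CPM of 8 proximal small intestine genes was 3132 to 55090 in PF mice, highest in fat-1 PF replicates 2 and 4, and 595 to 1543 in EtOH-fed mice, without overlap. The summed CPM of 5 ileum genes was lowest in fat-1 PF replicates 2 and 4, at 461 and 404. Diet and proximal gene content therefore cannot be told apart, nor can diet and library order, since libraries 1 to 8 are PF and 9 to 16 EtOH. In tissue RNA, fewer cells of a type and less RNA per cell cannot be told apart either. Counts of members that passed by EtOH are given with and without them.

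Levels per exon length (TPM, not scaled with TMM) spanned from abundant folding machinery to scarce regulators. Over the 16 mice, calreticulin (Calr), a calcium-binding lectin chaperone, was at 797 TPM ± 133 (SD, n = 16). The other abundant members were the ER HSP90 Hsp90b1 at 614 ± 145, the ER HSP70 Hspa5 (BiP) at 600 ± 205, the disulfide isomerase Pdia3 at 562 ± 81.6 and the membrane lectin Canx at 425 ± 86.9. Hsp90b1, Hspa5 and Pdia3 were closer to each other than their SDs. Atf4, at 274 ± 34.6, was the most abundant transcription factor of the list. The ATF4 target Ddit3 (CHOP) was at 30.8 ± 5.92. The 4 sensors were low: Atf6 at 26.4 ± 7.43, Ern2 at 26.3 ± 26.6, the PERK gene Eif2ak3 at 25.3 ± 5.54 and the IRE1 gene Ern1 at 13.01 ± 3.66 TPM. The lowest was Chac1, a glutathione-degrading ATF4 target, at 7.48 ± 5.49. The spread between mice was unequal. The highest CPM was 1.57 times the lowest for Pdia3, 3.15 times for Hspa5, 11.7 times for Ern2, 15.8 times for Chac1 and 65.9 times for Trib3.

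**Figure D2:**
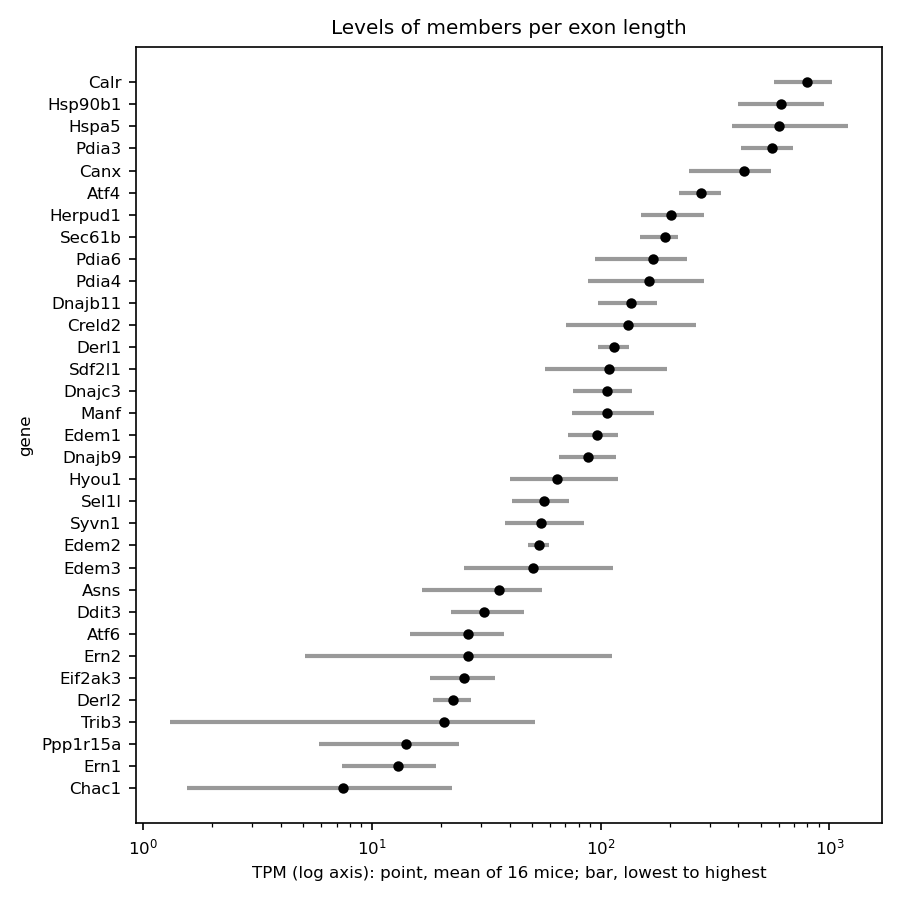
Level of each of the 33 members per exon length in TPM on a log axis: points are means over 16 mice and bars run from the lowest to the highest mouse. Calr was highest (797 TPM) and Chac1 lowest (7.48 TPM), and the bars of Trib3 and Ern2 are among the widest.

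No chaperone passed between groups with edgeR after TMM scaling, while single mice differed widely. None of the 9 members of the HSP70 system (Hspa5, Hyou1, Hsp90b1, Dnajb9, Dnajb11, Dnajc3, Sdf2l1, Manf, Creld2) and none of the 5 lectin chaperones and disulfide isomerases (Calr, Canx, Pdia3, Pdia4, Pdia6) had an edgeR adjusted p of 0.05 or less in any of 6 comparisons. With limma voom Pdia4 passed as higher for the EtOH effect averaged over genotypes, at a log2 fold change of 0.52 (limma adjusted p = 0.0174). On plain library totals, an alternative chosen after seeing the data in which the median of all genes was 0.43, Pdia4, Pdia6 and Dnajc3 passed as higher in fat-1 EtOH mice, at 0.59, 0.47 and 0.35 (edgeR adjusted p = 0.0369, 0.0325 and 0.0328). In fat-1 mice the 9 HSP70 system members had EtOH log2 fold changes from -0.45 to -0.004, with a median of -0.28, and without fat-1 EtOH replicate 1 a median of -0.46, when 3 of the 9 passed as lower, with 17.9% of all genes. Hspa5 was at 652, 745, 832 and 980 CPM in WT PF mice, at 1187, 681, 1155 and 852 in fat-1 PF mice, at 1130, 896 and 717 in WT EtOH mice, and at 1764, 981, 633, 559 and 663 in fat-1 EtOH mice. The 4 groups overlapped, and both the highest and the lowest mouse were fat-1 EtOH mice. Its log2 fold change was 0.19 ± 0.35 (SE) in WT EtOH vs WT PF (edgeR adjusted p = 0.843) and -0.07 in fat-1 EtOH against fat-1 PF (edgeR adjusted p = 0.863). The direction in fat-1 mice was not stable: it was 0.25 without the 3 libraries high in large intestine genes and -0.44 without fat-1 EtOH replicate 1.

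Fat-1 EtOH replicate 1 held the highest CPM of the 16 mice in 14 of the 33 members, among them 8 of the 9 members of the HSP70 system and 4 of the 5 lectin chaperones and disulfide isomerases. In that mouse Hyou1, a large HSP70 relative that helps Hspa5 exchange its nucleotide, reached 298 CPM, against 111 to 157 in the other 4 fat-1 EtOH mice. Creld2, a secreted protein of the stress response, reached 124 CPM against 37.9 to 59.9. By contrast, fat-1 EtOH replicates 3 and 4, the libraries highest in large intestine genes, held the lowest CPM in 8 and in 15 of the 33 members. The mean log2 CPM of the 9 HSP70 system members ran from 6.77 to 8.04 within fat-1 EtOH mice, wider than its range of 7.16 to 7.58 in WT PF mice. Plasma cell genes, a list of 8 for another cell type rich in ER, summed to 378 to 856 CPM in fat-1 EtOH mice and to 604 CPM in replicate 1. Exocrine pancreas genes summed to 5.04 CPM in that mouse, the lowest of the 16. Paneth genes summed to 17300 CPM in replicate 1, the highest of its group, to 16210 and 9868 CPM in replicates 2 and 5, and to 135 and 127 CPM in replicates 3 and 4. The part of Paneth cell content in the chaperone values was not tested.

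**Figure D3:**
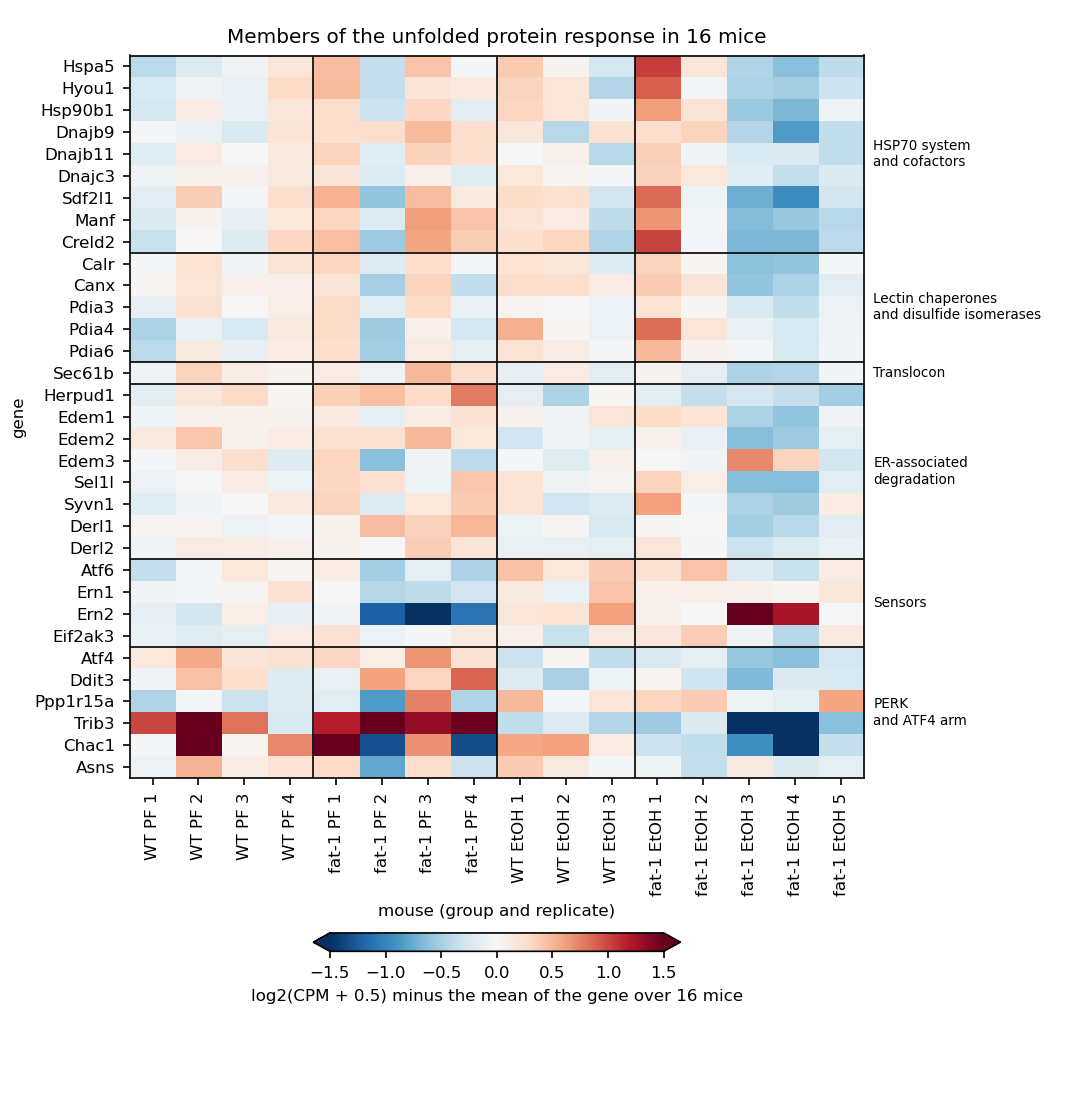
Heat map of log2(CPM + 0.5) of the 33 members (rows, by role) in the 16 mice (columns, by group and replicate), each minus the mean of the gene over the mice. Most chaperone rows are highest in fat-1 EtOH replicate 1 and low in replicates 3 and 4, while Trib3 and Atf4 are lower in most EtOH-fed mice than in most PF mice.

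The comparison of fat-1 EtOH with fat-1 PF mice asks what EtOH feeding did in transgenic mice. There Atf4, 2 of its targets (Trib3 and Ddit3) and the degradation gene Herpud1 were lower, and both IRE1 genes were higher. Chac1, Asns and Ppp1r15a of the PERK and ATF4 arm did not pass with all mice and TMM scaling. Of the 33 members 9 passed at an edgeR adjusted p of 0.05 or less, 2 higher (Ern2, Ern1) and 7 lower (Herpud1, Atf4, Trib3, Derl1, Edem2, Ddit3, Sec61b). Over all 13811 genes 37.4% passed, 18.7% higher and 18.8% lower, so the members' share was not above that of all genes. At an unadjusted p under 0.05 there were 12 members, against 47.9% of all genes. The median log2 fold change was -0.19 over the members and 0.05 over all genes. Counted by mice, 2 members were higher and 5 lower in every fat-1 EtOH mouse than in every fat-1 PF mouse, and 24.0% of all genes had groups that did not overlap. Without the 3 libraries high in large intestine genes 8 members passed, with 29.7% of all genes. Without the 2 PF libraries highest in proximal genes, an alternative chosen after seeing the data, 5 passed (Atf4, Herpud1, Trib3, Edem2 and Chac1, all lower), with 13.9% of all genes. Without fat-1 EtOH replicate 1, the mouse high in chaperones, 14 passed, which added Dnajb11, Manf, Creld2, Sel1l and Derl2, all lower, with 37.9% of all genes. The direction depended on the scaling. TMM sets the bulk of genes near no change, and on plain library totals, also chosen after seeing the data, the median of all genes moved to 0.43, 85.6% of the passing genes were higher against 49.9% with TMM, and 12 members passed, 9 higher and 3 lower, with 53.3% of all genes (45.6% higher and 7.66% lower). The 3 lower were Atf4 at -0.33 (edgeR adjusted p = 0.0377), Herpud1 at -0.43 (edgeR adjusted p = 0.0164) and Trib3 at -2.37 (edgeR adjusted p = 0.00355). Ddit3, Derl1, Edem2 and Sec61b, lower with TMM, did not pass on plain totals, at -0.37, -0.18, -0.18 and -0.04. On the scale of mean log2(TPM + 0.5), where the median of all genes was 0.52 higher in fat-1 EtOH mice, the differences were -0.14 for Atf4, -0.26 for Herpud1, -2.68 for Trib3 and -0.17 for Ddit3, while Derl1 and Edem2 were at -0.01 and -0.02 and Sec61b at 0.14. Decreases are therefore relative to the bulk of genes, and so are those that follow. Atf4, Herpud1 and Trib3 passed as lower in each of these 5 fits. In build mm10 they lie at chr15:80255184-80257541, chr8:94386438-94395377 and chr2:152337422-152344032.

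The largest decrease of any member was that of Trib3 in the PERK and ATF4 arm, of whose 6 members 3 passed as lower. Atf4, the transcription factor whose translation PERK favours, was at 283, 245, 361 and 266 CPM in fat-1 PF mice and at 196, 208, 154, 147 and 191 CPM in fat-1 EtOH mice. Every EtOH-fed mouse lay below every PF mouse, and the log2 fold change was -0.69 ± 0.15 (SE, edgeR adjusted p = 0.00290). The exact two-sided permutation p was 0.00794, the smallest that 5 against 4 mice can give. Trib3, a pseudokinase induced by ATF4 that dampens its activity, was at 26.9, 47.0, 29.7 and 33.02 CPM in fat-1 PF mice and at 7.79, 9.95, 0.738, 0.714 and 7.36 CPM in fat-1 EtOH mice. The groups were far apart, with replicates 3 and 4 lowest, and the log2 fold change was -2.68 ± 0.59 (edgeR adjusted p = 0.00363). Without the 3 libraries high in large intestine genes it was -1.99 ± 0.33 (edgeR adjusted p = 0.00247). Ddit3, the transcription factor CHOP, was at 17.2, 28.4, 23.2 and 34.2 CPM in fat-1 PF mice and at 19, 15.0, 11.5, 15.9 and 15.7 CPM in fat-1 EtOH mice, with 1 EtOH-fed mouse above the lowest PF mouse. Its log2 fold change was -0.74 ± 0.20 (edgeR adjusted p = 0.00961), but without the 2 PF libraries highest in proximal genes it was -0.38 (edgeR adjusted p = 0.214). Ddit3 overlaps Mars on the opposite strand, and whether the counting used the strand was not stated. Of the other members of this arm, Chac1 had a log2 fold change of -1.41 ± 0.64 (edgeR adjusted p = 0.0928). Fat-1 PF replicates 2 and 4 had 1.12 and 1.11 CPM of Chac1 and replicates 1 and 3 had 14.1 and 6.01. Without replicates 2 and 4 the log2 fold change of Chac1 was -2.24 ± 0.48 (edgeR adjusted p = 0.0153). Asns, the asparagine synthetase, and Ppp1r15a (GADD34), which ends the translational block by PERK, did not pass, at log2 fold changes of -0.04 and 0.31.

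Among degradation genes, Herpud1 had the smallest p of all members. It encodes a membrane protein that organises the degradation complex, and it carries both an ERSE-II and an AARE in the sequence above. Herpud1 was at 213, 228, 202 and 286 CPM in fat-1 PF mice and at 149, 130, 139, 131 and 117 CPM in fat-1 EtOH mice. The groups did not overlap, the log2 fold change was -0.80 ± 0.13 (edgeR adjusted p = 5.92e-04) and the exact two-sided permutation p was 0.00794. Derl1, a channel component for proteins leaving the ER, was at 140, 186, 171 and 192 CPM in fat-1 PF mice and at 137, 136, 94.6, 101 and 122 CPM in fat-1 EtOH mice, again without overlap but with fat-1 PF replicate 1 close to the EtOH-fed mice. Its log2 fold change was -0.55 ± 0.12 (edgeR adjusted p = 0.00375), and without the 2 PF libraries highest in proximal genes -0.40 (edgeR adjusted p = 0.0879). Edem2, which starts mannose trimming of misfolded glycoproteins, was at 77.5, 77.5, 92.8 and 73.6 CPM in fat-1 PF mice and at 68.9, 61.0, 42.2, 45.1 and 59.96 CPM in fat-1 EtOH mice. The 2 lowest were again replicates 3 and 4, and the log2 fold change of -0.54 ± 0.14 (edgeR adjusted p = 0.00796) became -0.32 (edgeR adjusted p = 0.0521) without the 3 libraries high in large intestine genes. Sel1l and Syvn1, the adaptor and the ligase of the same complex, and Edem1, Edem3 and Derl2 did not pass. Their log2 fold changes ran from -0.38 (Sel1l) to 0.33 (Edem3). The translocon subunit Sec61b, which did not pass on plain library totals, passed at -0.40 ± 0.14 (edgeR adjusted p = 0.0326) but not without the 3 libraries high in large intestine genes, where it was at -0.22 (edgeR adjusted p = 0.216).

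Both IRE1 genes were higher in fat-1 EtOH mice, and the other sensors did not pass. Ern1 was at 36.6, 26.8, 27.9 and 29.6 CPM in fat-1 PF mice and at 38.3, 38.9, 38.1, 37.2 and 40.9 CPM in fat-1 EtOH mice. The groups did not overlap, but 3 of the 4 fat-1 PF mice were also below every WT PF mouse (34.97, 35.9, 37.3 and 42.3 CPM), so that the fat-1 EtOH values were near those of WT mice. The log2 fold change of Ern1 was 0.35 ± 0.11 (edgeR adjusted p = 0.0235), with an edgeR adjusted p of 0.0538 under the replicate block, and 0.26 (edgeR adjusted p = 0.202) without the 2 PF libraries highest in proximal genes. Ern2 was at 19.6, 8.42, 6.97 and 9.21 CPM in fat-1 PF mice and at 21.3, 20.5, 81.4, 48.8 and 20.3 CPM in fat-1 EtOH mice. Replicates 3 and 4 stood far above the other 3 EtOH-fed mice, which lay just above fat-1 PF replicate 1. Those 3 were within the WT PF range of 16.8 to 21.8 CPM, and fat-1 PF replicates 2, 3 and 4 were below every WT PF mouse. The log2 fold change of Ern2 was 1.79 ± 0.43 (edgeR adjusted p = 0.00614). It was 0.91 ± 0.28 (edgeR adjusted p = 0.0300) without the 3 libraries high in large intestine genes, and 1.52 (edgeR adjusted p = 0.0910) without the 2 PF libraries highest in proximal genes. Among 8 goblet genes, 4 were higher and 1 lower with EtOH in fat-1 mice. Muc2, the main gel-forming mucin of the gut, was high in the same mice as Ern2. It was at 8164 and 7544 CPM in fat-1 EtOH replicates 3 and 4 and at 1299 to 1701 CPM in the other 3. The goblet sum differed less, with 17240 and 16490 CPM for those 2 mice against 11510 to 15180 CPM for the rest of the group. The part of this sum other than Muc2 was therefore lower in those 2 mice than in the rest. The goblet genes summed to 10450 to 15330 CPM in fat-1 PF mice and to 11510 to 17240 CPM in fat-1 EtOH mice, and none of the 8 was at 0. Their part in the change of Ern2 was not tested.

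Atf6 was at 64.9, 81.6, 92.3 and 84.6 CPM in WT PF mice, at 89.8, 58.1, 75.2 and 60.3 in fat-1 PF mice, at 112, 92.9 and 108 in WT EtOH mice and at 96.5, 112, 72.7, 65.5 and 89.4 in fat-1 EtOH mice. Fat-1 PF replicates 2 and 4 and fat-1 EtOH replicates 3 and 4 were among the 5 lowest. Its log2 fold change in fat-1 mice was 0.30 and did not pass, and without the 3 libraries high in large intestine genes it was 0.51 ± 0.16 (edgeR adjusted p = 0.0345). On plain library totals it was 0.64 (edgeR adjusted p = 0.00508). Eif2ak3 was at 49.5, 46.6, 47.8 and 57.6 CPM in WT PF mice, at 61.5, 49.8, 51.8 and 58.2 in fat-1 PF mice, at 56.1, 42.0 and 58.9 in WT EtOH mice and at 59.96, 68.6, 51.0, 39.3 and 58.3 in fat-1 EtOH mice. The 4 groups overlapped, and its log2 fold change in fat-1 mice was 0.002 (edgeR adjusted p = 0.994), and on plain library totals 0.35 (edgeR adjusted p = 0.0488).

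**Figure D4:**
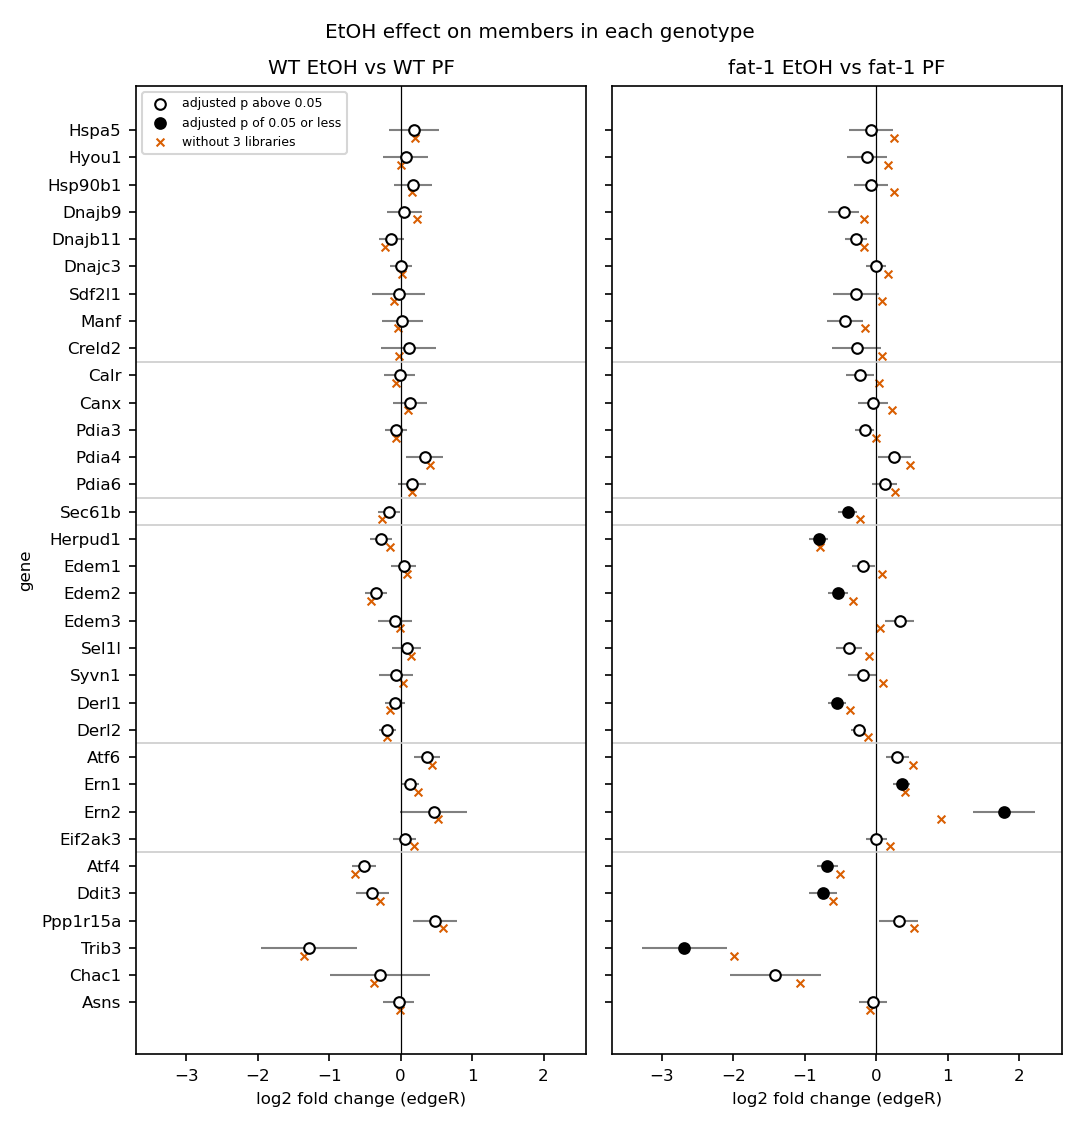
Log2 fold change of the 33 members by EtOH in WT mice (left) and fat-1 mice (right), with standard errors, from edgeR after TMM scaling. Filled points passed at an adjusted p of 0.05 or less (0 members left, 9 right), and crosses give the value without the 3 libraries high in large intestine genes, with which Trib3 in fat-1 mice moved from -2.68 to -1.99 and Ern2 from 1.79 to 0.91.

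In WT EtOH vs WT PF, which asks the same of WT littermates, no member passed with edgeR, and 0.0796% of all genes did. A fit to these 2 groups alone called 1 member, Atf4, at -0.49 (edgeR adjusted p = 0.0486), with 8.32% of all genes. At an unadjusted p under 0.05 there were 2 members, Atf4 and Edem2, against 14.1% of all genes. DESeq2 called 0 members, with 1.45% of all genes it tested, and limma voom with sample quality weights called 5 (Atf4, Edem2 and Trib3 lower, Atf6 and Ppp1r15a higher), with 20.3% of all genes. Without the 3 libraries high in large intestine genes 0 members passed, with 0.189% of all genes, and without the 2 PF libraries highest in proximal genes 0, with 0.106%. The median log2 fold change was 0.01 over the members and 0.01 over all genes. Atf4 was at 256, 340, 261 and 268 CPM in WT PF mice and at 182, 233 and 177 CPM in WT EtOH mice. Every EtOH-fed mouse was below every PF mouse, with a log2 fold change of -0.51 ± 0.17 (edgeR adjusted p = 0.220) and an exact two-sided permutation p of 0.0286, the smallest that 3 against 4 mice can give. Edem2 was at 72.6, 88.3, 68.2 and 71.3 CPM in WT PF mice and at 54.0, 63.8 and 59.3 CPM in WT EtOH mice, also without overlap. Its log2 fold change was -0.35 ± 0.16 (edgeR adjusted p = 0.341). In all, 2 members (Atf6 and Ern2) were higher and 3 (Atf4, Edem2 and Derl2) lower in every WT EtOH mouse than in every WT PF mouse, and 24.3% of all genes had groups that did not overlap. Trib3 was at 23.7, 33.5, 20.9 and 9.87 CPM in WT PF mice and at 8.86, 9.97 and 8.402 CPM in WT EtOH mice, where 1 PF mouse lay within the range of the EtOH-fed mice. Its log2 fold change was -1.28 ± 0.67 (edgeR adjusted p = 0.405). Ern2 was at 18.6, 16.8, 21.8 and 18.6 CPM in WT PF mice and at 23.1, 23.5 and 31.5 CPM in WT EtOH mice, at 0.46 ± 0.46 (edgeR adjusted p = 0.685). WT EtOH replicate 2, the WT library high in large intestine genes, was not the highest of these 3 in Ern2. Ern1 was at 40.1, 34.0 and 49.2 CPM in WT EtOH mice, a wider range than in WT PF mice. Herpud1 was at 149, 188, 204 and 170 CPM in WT PF mice and at 152, 120 and 168 CPM in WT EtOH mice, and the groups overlapped. Ddit3 was at 17.9, 25.4, 22.2 and 16.1 CPM in WT PF mice and at 16.03, 13.02 and 17.5 CPM in WT EtOH mice, with overlap as well.

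Averaged over both genotypes, the EtOH effect used all 16 mice, and 10 members passed with edgeR. Higher were Ern2 and Ern1, and lower were Herpud1, Atf4, Trib3, Edem2, Ddit3, Derl1, Derl2 and Sec61b. Over all genes 35.9% passed, 18.3% higher and 17.6% lower, and at an unadjusted p under 0.05 there were 11 members against 46.9% of all genes. The median log2 fold change was -0.11 over the members and 0.04 over all genes. By p, Herpud1 led with -0.54 ± 0.10 (edgeR adjusted p = 0.00127), followed by Atf4 with -0.60 ± 0.11 (edgeR adjusted p = 0.00139) and Trib3 with -1.98 ± 0.45 (edgeR adjusted p = 0.00463). Derl2, a Derl1 relative of the same complex, had -0.22 ± 0.08 (edgeR adjusted p = 0.0415). Its CPM was 61.5, 70.1, 69.9 and 68.3 in WT PF mice, 66.7, 64.0, 83.5 and 74.0 in fat-1 PF mice, 59.5, 59.8 and 58.3 in WT EtOH mice, and 73.1, 63.3, 51.4, 55.9 and 60.1 in fat-1 EtOH mice. WT EtOH mice were all below the WT PF mice, while the fat-1 groups overlapped, and Derl2 also overlaps Mis12 on the opposite strand. The calls of Derl2 and Sec61b were each lost in 19 of 26 alternatives. Atf6 missed the threshold with 0.33 ± 0.13 (edgeR adjusted p = 0.0504). It passed without the 3 libraries high in large intestine genes, at 0.48 (edgeR adjusted p = 0.0109), and also with upper-quartile normalization (edgeR adjusted p = 0.0143), limma voom (adjusted p = 0.00382) and DESeq2 (adjusted p = 0.0474). Ern1 lost its call with the replicate block, without the 2 PF libraries highest in proximal genes and without any 1 of 8 mice, in 10 of 26 alternatives. Without WT EtOH replicate 3, 6 members passed, with 27.7% of all genes, and without the 2 PF libraries highest in proximal genes 5, with 23.9%. Without the 3 libraries high in large intestine genes 9 passed, 3 higher and 6 lower, with 32.9% of all genes. On plain library totals 11 passed, 8 higher and 3 lower (Atf4, Herpud1 and Trib3), with 49.7% of all genes (42.1% higher and 7.57% lower), where 84.8% of the passing genes were higher against 50.9% with TMM, and Derl2 changed sign to 0.03.

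**Figure D5:**
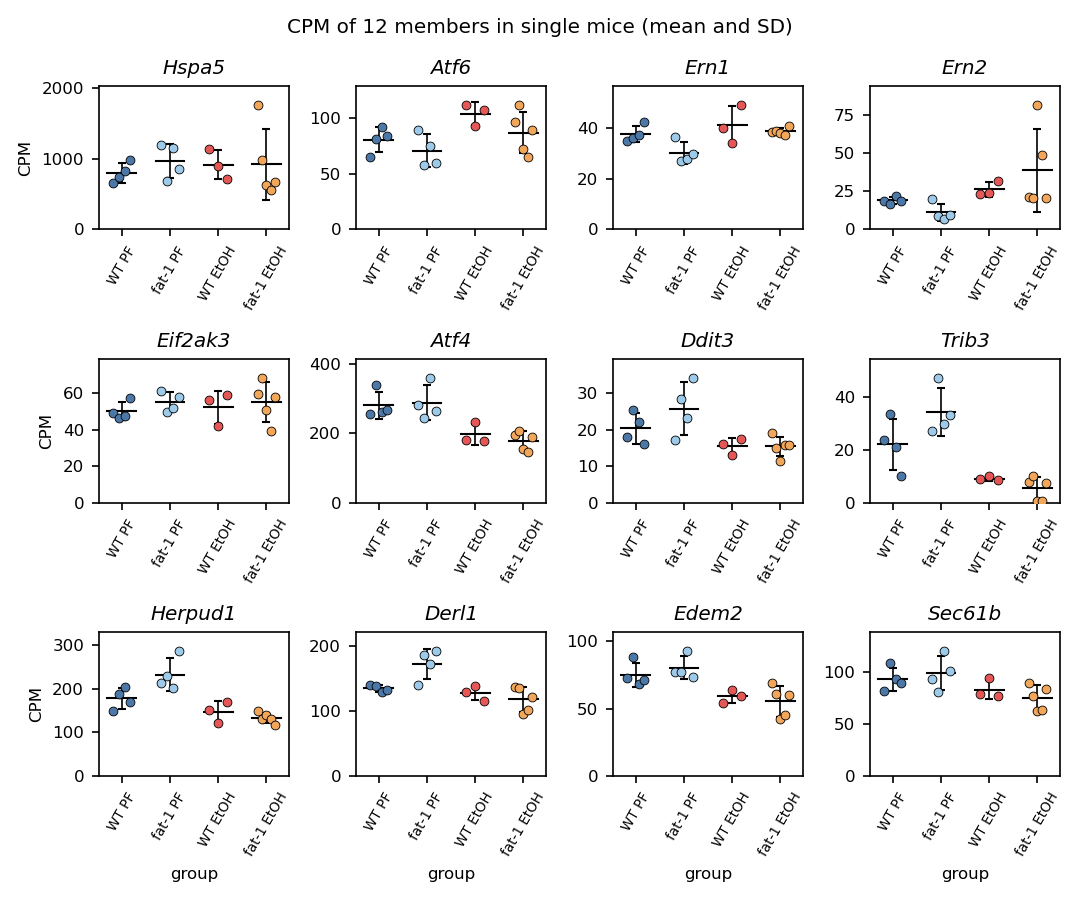
CPM of 12 members in single mice by group (points), with the mean (line) and SD (bars), on axes that start at 0. Atf4 is lower in all EtOH-fed mice than in all PF mice of the same genotype, Hspa5 overlaps in all groups, and Ern2 reaches 81.4 and 48.8 CPM in fat-1 EtOH replicates 3 and 4.

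Between genotypes no member passed. In fat-1 PF vs WT PF, 0 members and 0.0% of all genes passed with edgeR, and DESeq2 and limma voom also called 0 members, with 1.01% and 0.224% of the genes they tested. At an unadjusted p under 0.05 there were 3 members, against 12.7% of all genes: Herpud1 at a log2 fold change of 0.39 ± 0.14 (edgeR adjusted p = 0.248), Derl1 at 0.35 ± 0.13 (edgeR adjusted p = 0.263) and Ern1 at -0.31 ± 0.12 (edgeR adjusted p = 0.278). Derl1 was at 139, 139, 129 and 132 CPM in WT PF mice and at 129, 138 and 116 CPM in WT EtOH mice, and the WT PF values were below all 4 fat-1 PF mice (exact two-sided permutation p = 0.0286, the smallest that 4 against 4 can give). Dnajb9, an HSP40 cofactor of Hspa5, was at 76.7, 72.8, 66.6 and 90 CPM in WT PF mice and at 93.2, 94.1, 109 and 93.0 CPM in fat-1 PF mice, the second member without overlap, at the same exact permutation p = 0.0286. Over all genes 6.87% had groups that did not overlap. The fat-1 PF mice are also the controls of the EtOH comparison in fat-1 mice. Without fat-1 PF replicates 2 and 4 the log2 fold changes of Herpud1 and Derl1 were 0.22 and 0.20. In fat-1 EtOH vs WT EtOH, 0 members and 0.00724% of all genes passed with edgeR, 0 members with DESeq2 (0.0281% of genes tested) and with limma voom (0.00724%), and 0 members and 4.86% of all genes had an unadjusted p under 0.05. The smallest p were those of Chac1, at -1.24 ± 0.68, and Atf6, at -0.26 ± 0.18 (edgeR adjusted p = 0.757 for both). Chac1 was at 5.55, 5.67 and 3.87 CPM in WT EtOH mice and at 2.76, 2.64, 1.64, 0.892 and 2.65 CPM in fat-1 EtOH mice, without overlap (exact two-sided permutation p = 0.0179, the smallest that 5 against 3 can give). It was the 1 member without overlap there, and 2.45% of all genes had groups that did not overlap.

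The interaction, which asks whether the EtOH effect differed between genotypes, did not pass for any member with edgeR, DESeq2 or limma voom, nor for any gene with edgeR (0.0%). At an unadjusted p under 0.05 there were 2 members, Herpud1 at -0.53 ± 0.20 and Derl1 at -0.47 ± 0.19 (edgeR adjusted p = 0.595 for both), against 8.26% of all genes. That 9 members passed among fat-1 mice and 0 among WT mice is therefore not a tested difference between genotypes, and the WT comparison had 3 EtOH-fed mice.

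A wider list of 99 other genes of the pathway, of which 96 were in the table and tested, was lower in fat-1 EtOH mice more often than higher: 35 passed lower and 9 higher by EtOH in fat-1 mice after TMM scaling, with 18.8% and 18.7% of all genes. This split turned on plain library totals, where 12 passed lower and 32 higher, with 7.66% and 45.6% of all genes. Without the 3 libraries high in large intestine genes 23 passed lower and 4 higher, with 15.8% and 13.9% of all genes, and without the 2 PF libraries highest in proximal genes 20 and 0, with 7.95% and 5.99%. Averaged over genotypes 29 passed lower and 7 higher, with 17.6% and 18.3% of all genes. In the other 4 comparisons 0 passed with edgeR. At an unadjusted p under 0.05 there were 10 in WT EtOH vs WT PF and 16 in fat-1 PF vs WT PF, against 14.1% and 12.7% of all genes. There were 5 in fat-1 EtOH vs WT EtOH and 11 for the interaction, against 4.86% and 8.26% of all genes. By class in fat-1 mice after TMM scaling, 6 of 7 genes of export from the ER, 9 of 17 of translocation and signal peptide processing and 3 of 3 membrane regulators were lower, with none of these higher. Of 27 genes of ATF4 targets and the integrated stress response, 5 were lower and 3 higher, and of 14 folding and redox genes 5 were lower and 3 higher. The 2 largest decreases were those of membrane-bound transcription factors of the CREB3 family. Creb3l3, which controls lipid genes in liver and small intestine, averaged 774 ± 341 CPM (SD) over the 4 fat-1 PF mice and 93.1 ± 29.5 over the 5 fat-1 EtOH mice, a log2 fold change of -3.06 ± 0.33 (SE, edgeR adjusted p = 2.02e-04). It was at 448 ± 146 in WT PF mice (n = 4) and 111 ± 14.1 in WT EtOH mice (n = 3). The log2 fold change was -2.42 for its relative Creb3l2, -1.93 for Sec24d, a coat protein of ER export vesicles, -1.80 for the abundant disulfide isomerase P4hb and -1.63 for the amino acid transporter chain Slc3a2. The largest increases were those of Creb3l1 at 1.90, the lipoprotein receptor Vldlr at 1.68, Creb3l4 at 1.43, the amino acid sensing kinase Eif2ak4 (GCN2) at 1.23 and the isomerase Pdia5 at 1.05. Creb3l1 ran from 25.9 to 137 CPM in fat-1 EtOH mice and from 12.6 to 22.9 CPM in fat-1 PF mice. Without the 3 libraries high in large intestine genes its log2 fold change was 0.68 (edgeR adjusted p = 0.0192) and that of Eif2ak4 0.66 (edgeR adjusted p = 0.0385), while Vldlr, Creb3l4 and Pdia5 did not pass, at 0.46, 0.51 and 0.38. Creb3l3, Creb3l2, Sec24d, P4hb and Slc3a2 passed there and on plain library totals, all lower. Without the 2 PF libraries highest in proximal genes Creb3l3, Creb3l2, Sec24d and P4hb passed as lower, while Slc3a2 did not, at -1.45 (edgeR adjusted p = 0.0667), nor did any of the 5 increases, with Creb3l1 at 1.57 (edgeR adjusted p = 0.108) and Eif2ak4 at 1.28 (edgeR adjusted p = 0.0597). Members and these genes were called beside shifts in several lists of cell and region markers in fat-1 mice. All 8 proximal small intestine genes and 2 of 6 enterocyte genes were lower, and all 6 smooth muscle genes and 5 of 6 tested large intestine genes were higher. Of 6 tested Paneth genes none passed, and their sum ran from 127 to 17300 CPM in fat-1 EtOH mice and was lowest in replicates 3 and 4. Of the 8 plasma cell genes 1 was higher and 1 lower. The part of these shifts in the members' changes was not tested.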

How the data were processed

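Stranded libraries of poly(A) RNA, 1 per mouse, were read as pairs of 75 bases. The authors aligned the reads with tophat2 to mm10, guided by Ensembl transcripts, and deposited htseq counts for each gene, as raw values without normalization. The settings of the counting, its use of the strand among them, are not given in the sources used here. Symbols, positions and exon lengths came from GENCODE M21 (also mm10), which lacks 26 of the 21965 genes. The symbol Ddit3 has 2 rows, of which that of 105 bases has no count in any mouse and was not used.

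Genes were filtered with filterByExpr, scaled with TMM and fitted with edgeR 4.0.16 (quasi-likelihood, robust, 1 mean per group, all 16 libraries) in R 4.3.3, with Benjamini-Hochberg adjustment over 13811 genes at 0.05. The authors used cuffdiff2, which needs aligned reads. TPM were computed from counts and exon lengths. Differences in mean log2(CPM + 0.5) of single members were tested by exact permutation of the mice. The edgeR step was tested on simulated data. Other steps used python 3.11.15.

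The alternatives were DESeq2 1.42.0, limma 3.58.1 voom with sample quality weights, 2 other normalizations, a looser filter (1 count in 1 mouse) and a stricter one (10 counts in all mice), fits to the compared groups alone, a replicate block, each mouse left out in turn, and libraries that stood apart left out. Leaving out the 2 PF libraries highest in proximal genes, and scaling by plain library totals, were added after seeing the data. Named with values for every mouse were Hspa5, the 4 sensors, Atf4, Ddit3 and, in each comparison, up to 8 passing members by p, or the 2 with the smallest p where none passed. Sec61b, Chac1, Trib3 in WT mice, Derl2, and Hyou1, Creld2 and Dnajb9 in single mice were described after their values were seen. Of the other pathway genes the 5 largest passing changes in each direction are named. The members and lists were chosen with earlier results of these data known. Lists of B cell follicle, adipocyte and proliferation genes were also tested, and by EtOH in fat-1 mice 0 of 8, 1 of 5 (lower) and 0 of 6 passed. Of the 5 ileum genes 0 passed there.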

Additional observations from a re-analysis of the deposited data

Results flagged for a closer look

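Outliers were sought in 99 sets of CPM, those of each of the 33 members in each group of 4 or 5 mice, as 1 mouse whose gap to the next, over the range of the group, exceeded Dixon's limit. Chance gives about 1 such set in 20, and 5 were found. Hyou1 was at 298 CPM in fat-1 EtOH replicate 1, against 111 to 157 in the other mice of its group. Creld2 was at 124 CPM in the same mouse, against 37.9 to 59.9. Dnajb9, an HSP40 cofactor of Hspa5, was at 109 CPM in fat-1 PF replicate 3, against 93.0 to 94.1 in the others. Edem1 was at 210 CPM in WT PF replicate 1, against 229 to 230, and Atf4 was at 340 CPM in WT PF replicate 2, against 256 to 268. No member moved in opposite directions by EtOH in the 2 genotypes in every mouse, and no interaction passed for a member with edgeR (adjusted p of 0.595 or more).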

How the results depend on the processing

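With 3 to 5 mice per group and 5 libraries apart in region genes, small changes of members could not be told from the spread between mice. In WT EtOH vs WT PF, 0 members passed except with only the groups compared (1, Atf4, with 8.32% of all genes) and with limma voom (5), and leaving out any 1 mouse gave 0 (0 to 0). By EtOH in fat-1 mice, leaving out 1 mouse gave 8 to 14 members, with 14 without fat-1 EtOH replicate 1, where 37.9% of all genes passed. The share of all genes over these fits was 28.5% to 39.4%, and 5 members passed without the 2 libraries highest in proximal genes. For the averaged effect, leaving out 1 mouse gave 6 to 10, with 6 without WT EtOH replicate 3, where 27.7% of all genes passed. The share of all genes over these fits was 26.9% to 38.1%, and 5 members passed without the 2 libraries highest in proximal genes. In the 3 other comparisons 0 members passed in all settings. The cause of these differences was not tested.

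Over 957 refits of single named members, 848 kept the direction and the side of the threshold, 79 lost the call, 8 gained it and 22 changed sign. Of the 22, 21 were those of values that had not passed and 1 that of Derl2. The EtOH log2 fold change of Hspa5 in fat-1 mice was 0.0650 with upper-quartile normalization, 0.25 without the 3 libraries high in large intestine genes, 0.29 with limma voom, 0.25 on plain library totals and -0.439 to 0.0765 without 1 mouse. That of Eif2ak3 was -0.0168 with the replicate block, -0.0276 without the 2 libraries highest in proximal genes and -0.0860 to 0.12 without 1 mouse. In WT mice, Ern1 ran from -0.0218 to 0.25 and Eif2ak3 from -0.0380 to 0.19 without 1 mouse. Atf4, Herpud1 and Trib3 kept their call in fat-1 mice in every setting that tested them, while Sec61b and Derl2 for the averaged effect each lost it in 19 of 26 (Derl2 with a change of sign to 0.0333 on plain library totals) and Ern1 in 10 of 26. In fat-1 mice Sec61b lost it in 10 of 27, Ern1 in 6, Edem2 in 3, Derl1 and Ddit3 in 2 each and Ern2 in 1.

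Same-numbered mice of different groups had a mean correlation of -0.0225 over 21 pairs, and others 0.00703 over 74. Pairs from all groups were pooled, so this does not exclude a pairing of EtOH-fed with PF mice. With the replicate block 0, 8 and 7 members passed in WT mice, in fat-1 mice and for the averaged effect, with 0.13%, 34.4% and 35% of all genes, against 0, 9 and 10 without it. Upper-quartile normalization moved the median over all genes of the EtOH log2 fold change in fat-1 mice from 0.05 to 0.20 and the share higher among passing genes from 49.9% to 69.0%. For the averaged effect these were 0.04 to 0.14 and 50.9% to 68.2%. On plain library totals the medians were 0.43 and 0.30, the shares 85.6% and 84.8%, and the members passing 12 (9 higher) and 11 (8 higher). The pseudocount of 2 changed no exact permutation call.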
